A study of Mus musculus with 28 samples.

Results

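Marco and 8 further scavenger receptor genes (Msr1, Cd36, Cd163, Cd68, Stab1, Scarb1, Colec12 and Scara5) were followed in mouse skin over 6 groups of recipients of spleen cells. The 9 genes were chosen from values of these same arrays that were already known, so their levels and differences are given as a description, with no p. Statements that a receptor passed a test, also in refits of the same mice, are part of that description and lend no support. Of the 9, 8 had a probe named for them alone, and all 8 were among the 14783 genes tested out of 19532 named genes. Cd68, the macrosialin of macrophage lysosomes, had no such probe and has no value here.

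Skin was taken 2 weeks after the transfer, a model of chronic graft-versus-host disease. Donor spleen cells came from B10.D2 mice, which are allogeneic to the balb recipients, or from balb/c mice, which are syngeneic. All recipients were rag2-/- and so could form no T or B cells of their own. Recipients that were rag2-/- alone comprised 5 allogeneic and 4 syngeneic mice. Recipients that were also IL13-/- comprised 4 allogeneic and 4 syngeneic mice, and those that were also IL4Ra-/- comprised 4 and 3. The labels name no mutation in the donor cells, and they give no age. Without IL4Ra, the last kind of recipient cannot respond to IL-4 or IL-13 in its own cells, while the donor cells can.

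Scavenger receptors bind modified lipoproteins, microbes, dying cells and other debris and carry them into the cell. Marco and Msr1 are class A receptors with a collagen-like stalk, found above all on macrophages, and Colec12 and Scara5 are class A relatives found outside macrophages too. Cd36 and Scarb1 are class B receptors of fatty acids, oxidised lipoproteins and high-density lipoprotein, while Cd163 and Stab1 are receptors of tissue macrophages for haemoglobin bound to haptoglobin and for a range of spent ligands. In a piece of skin, more cells of a type and more RNA per cell cannot be told apart.

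Each array set skin RNA against a reference RNA pooled from cell lines, and all levels below are log2 of skin over reference in 1 mouse. A level of 0 means equal signal from both RNAs. The 28 arrays covered 24 mice, and the 3 arrays of mouse 5702 and the 2 each of 5703 and 6232 were averaged. Turning the sign of the deposited ratios put 10 of 10 epidermal marker genes above 0 (median 5.67) and 4 of 11 genes of dividing and embryonic cells (median -1.94). Exact 0, taken as not measured, made up 2.42% to 36.8% of an array. Il4ra itself read -0.16 ± 0.20 (SD, n = 3) in syngeneic IL4Ra-/- mice and 0.61 ± 0.21 (SD, n = 4) in allogeneic ones. In rag2-/- mice it read 0.77 ± 0.51 (SD, n = 4) and 2.08 ± 0.67 (SD, n = 5). Group means of Il13 lay between -0.91 and 0.46 and those of Rag2 between -0.03 and 0.10. Whether these probes lie in the deleted parts is not given in the sources used here, so their levels check no genotype. Mice 6229 and 6234, both syngeneic and IL13-/-, stood apart: the 1 hair follicle marker with a value in every mouse read 5.41 and 6.60 in them and at most 3.17 in the others. Calls in IL13-/- mice that changed without these 2 mice are given both ways. Shares of all genes below come from the fit of all 24 mice, and fewer genes passed between donors in IL13-/- recipients without these 2.

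The promoters of Marco and Cd36 are shown because Marco rose and Cd36 fell under allogeneic cells in rag2-/- recipients. Both are RefSeq windows of 300 bases on GRCm38.p6, with 250 bases before the transcription start and 50 after, written 5′ to 3′ along the gene. Marco lies on the minus strand at chr1:120504975-120505274, and capitals mark GAGGAA, the core letters read by the macrophage factor PU.1.
Marco: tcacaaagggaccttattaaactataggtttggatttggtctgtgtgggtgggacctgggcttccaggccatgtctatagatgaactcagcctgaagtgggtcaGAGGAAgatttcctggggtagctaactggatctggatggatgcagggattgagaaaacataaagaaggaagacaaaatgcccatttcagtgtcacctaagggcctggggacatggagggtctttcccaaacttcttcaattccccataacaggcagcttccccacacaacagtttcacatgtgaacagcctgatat
Cd36 lies on the minus strand at chr5:17835847-17836146, and capitals mark TTC and GAA with 4 bases between them, the spacing read by STAT6, the factor that IL-4 and IL-13 activate.
Cd36: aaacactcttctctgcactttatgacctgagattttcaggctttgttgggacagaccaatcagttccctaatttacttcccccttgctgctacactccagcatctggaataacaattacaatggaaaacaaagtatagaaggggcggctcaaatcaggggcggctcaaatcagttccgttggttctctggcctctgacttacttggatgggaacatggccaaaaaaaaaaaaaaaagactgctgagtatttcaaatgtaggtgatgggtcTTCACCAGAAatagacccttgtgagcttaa
A search of both strands covered 4 motifs: TTC and GAA 4 bases apart, the same letters 3 bases apart as other STAT factors read them, GAGGAA and the AP-1 letters TGANTCA. Windows existed for 5 of the 9 genes, namely Marco, Cd36, Cd163, Cd68 and Stab1. GAGGAA occurred in the windows of Marco, 146 bases before the start, Stab1 and Cd68, and in 28.3% of all 32851 windows. The STAT6 spacing occurred in that of Cd36 alone, 21 bases after the start, and in 6.95% of all windows. TGANTCA occurred in that of Cd68 and in 7.81% of all windows, and the spacing of 3 in none of the 5 and in 8.3% of all. The capitals do not overlap another searched motif. These matches describe letters and say nothing of binding.

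Marco, the macrophage receptor for bacteria and particles, was high with allogeneic cells in rag2-/- and IL13-/- recipients, and low in syngeneic skin of both deficient recipients. The syngeneic rag2-/- mice stood at 1.81, 2.10, 2.46 and 2.47, and their allogeneic counterparts at 4.42, 4.44, 4.46, 4.62 and 5.85. Every allogeneic mouse lay above every syngeneic one, with means of 4.75 ± 0.62 (SD, n = 5) and 2.21 ± 0.32 (SD, n = 4). The difference was 2.55 (SE 0.45), a 5.84-fold higher level.

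Among IL13-/- mice Marco stood at -0.54, -0.32, -0.09 and -0.05 with syngeneic cells and at 2.42, 2.97, 3.35 and 4.15 with allogeneic cells. These groups did not overlap either, and the difference was 3.47 (SE 0.47). All 4 syngeneic values were dim, that is shared by many probes of their array, so no fold is given. In the IL4Ra-/- mice the syngeneic levels were -0.17, 0.13 and 0.81 and the allogeneic levels 0.49, 0.72, 2.64 and 3.06. Here the groups overlapped, and the difference of 1.47 (SE 0.51) did not pass the test across all genes (limma, adjusted p threshold 0.05). It passed with array weights, without mouse 5718 and without mouse 5720, with differences between 1.03 and 1.88 over all fits that left out 1 mouse.

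**Figure D1:**
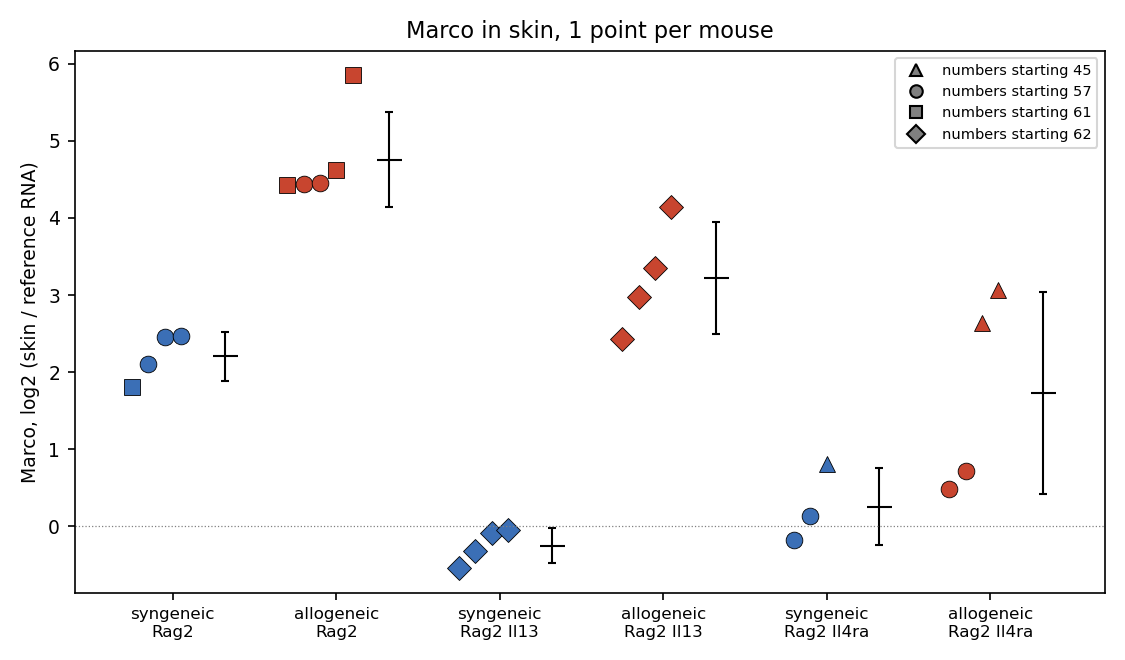
Marco level by group, as log2 of skin over reference RNA. Each point is a mouse, its shape gives the first digits of the mouse number, blue marks syngeneic and red allogeneic cells, and the bars are the mean and SD. The 5 allogeneic rag2-/- mice lie at 4.42 or above, and the 4 allogeneic IL4Ra-/- mice lie at 0.49, 0.72, 2.64 and 3.06.

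The 4 allogeneic IL4Ra-/- mice fell into 2 pairs by their number. Mouse numbers start with 45, 57, 61 or 62, and the labels do not tell whether these stand for different experiments. Mice 4533 and 4534 stood at 3.06 and 2.64, and mice 5718 and 5720 at 0.49 and 0.72. Mouse 5718 is labelled IL14Ra-/-, read here as IL4Ra-/- because the design of the series names only that receptor. Mouse 4533 is labelled IL4Ra/-, and mouse 6230 and 1 array of mouse 6232 are labelled IL13/-. These were read as IL4Ra-/- and IL13-/-. Within numbers starting 45, allogeneic minus syngeneic was 2.04 (2 mice against 1), and within numbers starting 57 it was 0.63 (2 against 2).

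Across recipients given allogeneic cells, Marco was lower in IL4Ra-/- than in rag2-/- mice, with a difference of -3.03 (SE 0.45). Marco was dim in 2 of these 4 IL4Ra-/- mice, 5718 and 5720, so no fold is given. The highest IL4Ra-/- mouse, at 3.06, lay below the lowest rag2-/- mouse, at 4.42. Numbers starting 45 hold no rag2-/- mice. Within numbers starting 57, which hold both recipients, the dim pair at 0.49 and 0.72 compared with a pair at 4.44 and 4.46, a difference of -3.84. The difference passed the test in every setting that gave a value, where 0.805% of all genes did. With number series as a block it was -3.80. Treating dim values as not measured left too few Marco values for a test in any comparison. Between allogeneic IL13-/- and rag2-/- mice the Marco difference was -1.53 (SE 0.45), with no overlap, and did not pass. No gene passed in that comparison (0%) with limma. An unadjusted p under 0.05 was found for 850 genes (5.75%), and 75 genes passed with array weights. IL13-/- mice all had numbers starting 62, so number series and IL13 genotype cannot be told apart.

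With syngeneic cells Marco was also compared between recipients. The difference of IL13-/- from rag2-/- mice was -2.46 (SE 0.47), with no overlap, and passed where 0.284% of all genes did. That call did not hold after quantile normalization, without mice 6229 and 6234 together, or without 5700, 5702, 5703, 5719, 6152, 6229 or 6234 alone. The difference itself stayed between -2.67 and -2.36 in all settings that gave a value. For IL4Ra-/- against rag2-/- mice it was -1.95 (SE 0.51), again with no overlap, and among the settings tried it passed within numbers starting 57 alone (-2.36). No gene passed in that comparison (0%) with limma. An unadjusted p under 0.05 was found for 430 genes (2.91%), and 2 genes passed with array weights.

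The low Marco levels were mostly dim. A value that at least 30 probes of an array share was called dim. The rule looks at the ratio alone, so the word dim stands for a repeated ratio and not for a measured brightness. Depending on the array, 40.9% to 54.4% of nonzero ratios met it. Whether low levels met it because of their level alone was not tested. Marco was dim on all 4 syngeneic IL13-/- arrays, where 69 to 294 other probes held the same value, on 2 of 3 syngeneic IL4Ra-/- arrays (mice 4535 and 5717) and on the arrays of mice 5718 and 5720. For the remaining syngeneic IL4Ra-/- mouse, 5719, 28 other probes held the Marco value, just short of the rule. On the arrays of rag2-/- mice and of allogeneic IL13-/- mice it was dim on none. Spot intensities were not analysed here, and how far these levels rest on signal was not tested. Arrays of the same mouse also differed: Marco ran from 1.97 to 2.92 over the 3 arrays of 5702, from 2.09 to 2.85 over the 2 of 5703 and from 3.32 to 3.38 over the 2 of 6232.

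In the order of the 6 group means, allogeneic rag2-/- mice (4.75) stood above allogeneic IL13-/- mice (3.22) with no overlap. The next neighbours overlapped in turn: syngeneic rag2-/- mice (2.21), allogeneic IL4Ra-/- mice (1.73), syngeneic IL4Ra-/- mice (0.26) and syngeneic IL13-/- mice (-0.25). Macrophage marker genes were higher with allogeneic cells in each recipient. Their mean level over 14 genes ran from 2.98 to 3.51 in allogeneic rag2-/- mice, from 2.44 to 3.76 in allogeneic IL13-/- mice and from 2.64 to 3.02 in allogeneic IL4Ra-/- mice. With syngeneic cells it ran from 0.64 to 0.94, from -0.56 to 0.71 and from 0.52 to 1.01 in the same 3 recipients. Syngeneic rag2-/- and IL4Ra-/- mice overlapped in macrophage markers. They did not overlap in Marco, which was dim in the IL4Ra-/- mice 4535 and 5717. Of the 15 tested markers, 0 passed between those groups, 2 were lower in syngeneic IL13-/- mice (Adgre1 and Mpeg1), 1 was lower in allogeneic IL4Ra-/- mice (Cd14) and 0 passed in allogeneic IL13-/- mice. Over all genes 0%, 0.284%, 0.805% and 0% passed in the same order. Where no gene passed, a count of 0 markers does not show that marker levels were alike. The calls of Adgre1 and Mpeg1 were lost in 20 and 15 of 29 other settings, among them without mice 6229 and 6234, singly or together (-0.96 and -0.80 without both). The Cd14 call was lost with number series as a block and without 4534, 5701, 5704, 5718, 5720, 6151 or 6154 alone. Over the 24 mice the mean level of macrophage markers had Pearson r 0.813 with Marco and 0.949 with Msr1. As deviations from group means r was 0.512 and 0.624. The mean level of T cell markers had r 0.818 and 0.952, and 0.284 and 0.570 as deviations. The part of either kind of marker in the Marco differences was not tested.

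**Figure D2:**
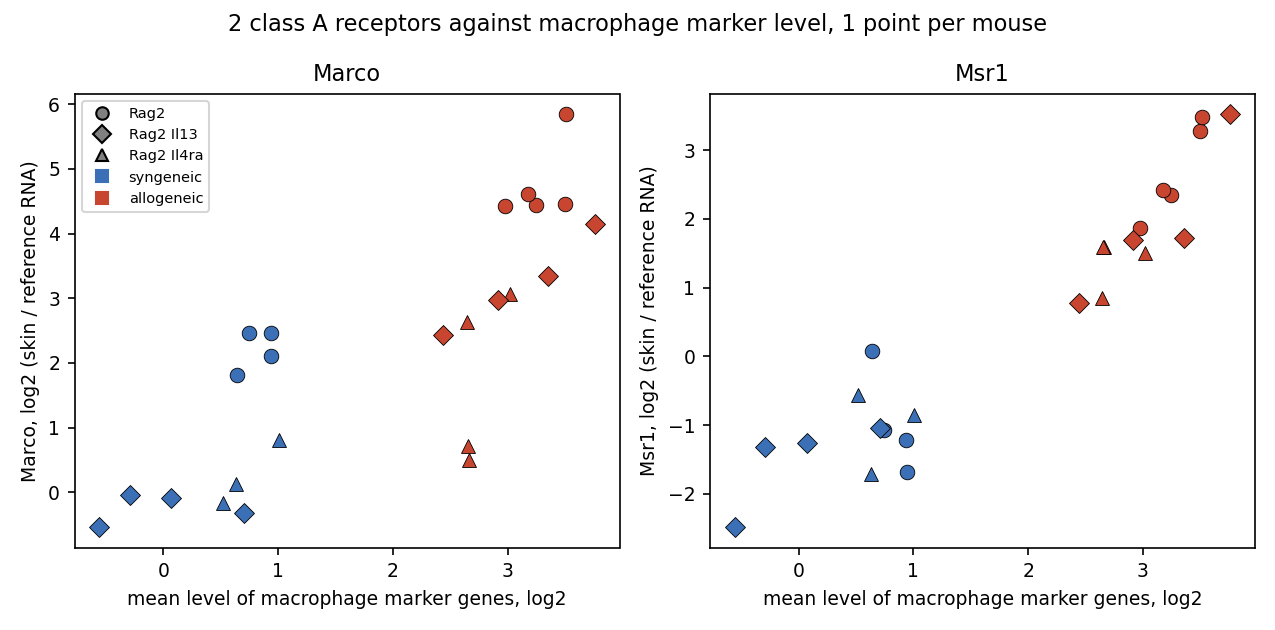
Marco (left) and Msr1 (right) against the mean level of 14 macrophage marker genes, both log2 of skin over reference RNA, with 1 point per mouse. Shape gives the recipient and colour the donor cells. At marker levels between 2.44 and 3.76 the allogeneic mice span 0.49 to 5.85 for Marco and 0.77 to 3.52 for Msr1. Pearson r over the 24 mice is 0.813 for Marco and 0.949 for Msr1.

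The genes whose levels ran most like Marco over the 24 mice, out of 11851 with a value in every mouse, were Podnl1 (Pearson r 0.907), Gnb4 (0.903), Ccrl2 (0.897), Ptpn6 (0.893) and Tmem176a (0.892). Gnb4 encodes a G protein subunit, Ccrl2 a chemokine receptor relative and Ptpn6 the phosphatase SHP-1 of blood cells. The mice fall into 6 groups, so these values mix differences between groups with those within them. Ptpn6 averaged 0.33 and 1.83 in syngeneic and allogeneic rag2-/- mice, -0.49 and 1.43 in IL13-/- mice and -0.18 and 1.00 in IL4Ra-/- mice.

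Msr1, the class A receptor first known for taking up modified lipoproteins, rose under allogeneic cells in all 3 recipients. In rag2-/- mice it stood at -1.68, -1.22, -1.08 and 0.07 with syngeneic cells and at 1.87, 2.35, 2.42, 3.28 and 3.48 with allogeneic cells. The IL13-/- mice had -2.48, -1.32, -1.25 and -1.04 against 0.77, 1.70, 1.72 and 3.52. The IL4Ra-/- mice had -1.71, -0.85 and -0.56 against 0.85, 1.51, 1.59 and 1.59. In none of the recipients did the groups overlap. The differences were 3.66 (SE 0.47), 3.45 (SE 0.49) and 2.42 (SE 0.53), and each passed in every setting that gave a value. With dim values not measured, the differences were 4.13, 3.75 and 3.39, so no fold is given. The 3 Msr1 probes gave differences of 3.48 to 3.80, 3.20 to 3.75 and 2.09 to 2.92 in the same order of recipients. Syngeneic levels were partly dim, with 13 of 21 probe values in rag2-/- mice, 5 of 12 in IL13-/- mice and 5 of 9 in IL4Ra-/- mice.

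Between recipients Msr1 did not pass in any comparison. Allogeneic IL4Ra-/- mice differed from allogeneic rag2-/- mice by -1.30 (SE 0.47), with no overlap (highest 1.59 against lowest 1.87). For allogeneic IL13-/- mice the difference was -0.75 (SE 0.47), with overlap. The syngeneic groups overlapped throughout, with means of -0.98 ± 0.75 (SD, n = 4), -1.52 ± 0.65 (SD, n = 4) and -1.04 ± 0.60 (SD, n = 3). The gene most like Msr1 was Lilrb4a, an inhibitory receptor of myeloid cells, at r 0.984 over the 24 mice.

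Colec12, a class A relative known from endothelium, and Scara5, a class A relative that takes up ferritin, passed in 1 recipient each. Colec12 stood at -2.16, -1.67, -1.52 and -1.31 in syngeneic and at -1.22, -1.02, -0.73 and -0.51 in allogeneic IL13-/- mice. All 4 allogeneic mice lay above all 4 syngeneic mice, by 0.80 (SE 0.18) on average, which passed. Without mice 6229 and 6234, at -1.67 and -2.16, the difference was 0.55 and did not pass, nor did it in a fit of only these 2 groups. In rag2-/- mice Colec12 averaged -1.09 ± 0.15 (SD, n = 4) and -0.72 ± 0.27 (SD, n = 5), and in IL4Ra-/- mice -0.91 ± 0.13 (SD, n = 3) and -0.79 ± 0.13 (SD, n = 4). Both pairs overlapped, and neither difference (0.38, SE 0.17, and 0.12, SE 0.19) passed.

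Scara5 stood at 1.97, 2.53, 2.85 and 2.86 in syngeneic rag2-/- mice and at -0.145, 1.14, 1.23, 1.35 and 1.503 in allogeneic ones. It fell by 1.53 (SE 0.35), or 2.90-fold, with no overlap and in every setting that gave a value. The IL4Ra-/- mice stood at 2.58, 2.92 and 3.02 with syngeneic and at 1.71, 1.76, 1.89 and 2.07 with allogeneic cells, a difference of -0.98 (SE 0.40) that did not pass although the groups did not overlap. It passed with array weights and in a fit of only these 2 groups. The IL13-/- groups overlapped, from 0.84 to 2.78 and from 0.72 to 2.15, with a difference of -0.16 (SE 0.37). Without mice 6229 and 6234 that difference was -0.78 and did not pass, and with 1 mouse left out it ran from -0.46 to 0.19. A further Scara5 probe had a value in 6 of 24 mice and was not used. With exact 0 kept as a value, which brings that probe in, the difference in rag2-/- mice was -0.72.

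Cd36, the fatty acid and oxidised lipoprotein receptor of fat cells, capillaries, muscle and macrophages, fell under allogeneic cells in rag2-/- and IL4Ra-/- recipients. The syngeneic rag2-/- mice stood at 2.93, 3.06, 3.35 and 3.42, and the allogeneic ones at 1.52, 2.06, 2.15, 2.25 and 2.38. The groups did not overlap, and the fall of 1.12 (SE 0.22), or 2.17-fold, passed in every setting that gave a value. In IL4Ra-/- mice Cd36 went from 3.49, 3.59 and 3.93 to 2.53, 2.79, 2.99 and 3.07, again with no overlap and with a difference of -0.82 (SE 0.25). That call was lost with exact 0 kept as a value, after quantile normalization, within numbers starting 57 (-0.74) and without any 1 of mice 4533, 4534, 4535, 5717, 5718 and 5719. The IL13-/- groups overlapped, at 1.91 to 2.86 and 2.08 to 3.10, with a difference of 0.31 (SE 0.23) that did not pass.

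The donor difference of Cd36 was 1.42 (SE 0.31) higher in IL13-/- than in rag2-/- recipients and did not pass. It passed with array weights, without mouse 6224 and without mouse 6225. Its 2 probes differed by -1.15 and -1.08 in rag2-/-, 0.39 and 0.22 in IL13-/- and -0.81 and -0.84 in IL4Ra-/- mice. Adipocyte markers moved with it: 6 of 9 tested were lower in allogeneic rag2-/- mice, and their mean level over 8 genes ran from 4.66 to 5.13 with syngeneic and from 3.97 to 4.24 with allogeneic cells. In IL13-/- mice that level ran from 4.11 to 5.03 and from 4.403 to 4.81, with 1 of 9 higher (0 without mice 6229 and 6234), and in IL4Ra-/- mice from 4.95 to 5.77 and from 4.74 to 4.93, with 0 of 9 passing. Over all genes 12.6% were higher and 15.6% lower in allogeneic rag2-/- mice. The shares were 9.19% and 7.11% in IL13-/- mice and 5.91% and 3.31% in IL4Ra-/- mice. Skeletal muscle markers were lower in 5 of 10 and fibroblast markers in 4 of 10 in allogeneic rag2-/- mice, and endothelial markers were higher in 1 and lower in 1 of 11. The part of these cells in the Cd36 and Scara5 values was not tested. The genes most like them over the 24 mice were Rgcc for Cd36 (r 0.944) and the cytochrome P450 gene Cyp2j6 for Scara5 (r 0.951).

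Scarb1, the receptor for high-density lipoprotein, ranged from -1.17 to -0.08 over the 24 mice. It averaged -0.85 ± 0.18 (SD, n = 4) with syngeneic and -0.44 ± 0.07 (SD, n = 5) with allogeneic cells in rag2-/- mice, with no overlap. The corresponding means were -0.57 ± 0.30 (SD, n = 4) and -0.29 ± 0.21 (SD, n = 4) for IL13-/- mice. IL4Ra-/- mice averaged -0.76 ± 0.40 (SD, n = 3) with syngeneic and -0.23 ± 0.16 (SD, n = 4) with allogeneic cells, and both of these recipients overlapped. None of the differences of 0.40 (SE 0.16), 0.28 (SE 0.17) and 0.53 (SE 0.18) passed, though the first passed in 8 and the third in 5 of 36 other settings. The gene most like it was the transcription factor gene Maf (r 0.794).

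Cd163, the receptor that clears haemoglobin, had no donor difference that passed. It stood at 4.81, 4.97, 5.43 and 5.90 in syngeneic and at 4.05, 4.31, 4.58, 4.71 and 4.73 in allogeneic rag2-/- mice. Those groups did not overlap, and the difference of -0.81 (SE 0.31) passed in 9 of 36 other settings. The other recipients overlapped, with 4.43 ± 0.69 (SD, n = 4) and 4.67 ± 0.43 (SD, n = 4) in IL13-/- while IL4Ra-/- mice averaged 4.80 ± 0.42 (SD, n = 3) with syngeneic and 4.78 ± 0.54 (SD, n = 4) with allogeneic cells. The 2 arrays of mouse 5703 read 3.84 and 6.11, a wider gap than the difference between the groups. Of 7 tested markers of resident skin macrophages, 0 passed in rag2-/- mice, 2 were higher with allogeneic cells in IL13-/- mice (0 without mice 6229 and 6234) and 0 passed in IL4Ra-/- mice. Over all genes 28.2%, 16.3% and 9.21% passed in these recipients. The gene most like Cd163 was Cidea (r 0.939), a lipid droplet gene of fat cells. With the mean level of adipocyte markers Cd163 had r 0.308 over the 24 mice. With resident skin macrophage markers it had r 0.604 and with skeletal muscle markers 0.611.

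Stab1, a receptor of macrophages and sinusoidal endothelium, passed in IL13-/- recipients. It stood at 2.28, 2.32, 3.30 and 3.37 with syngeneic and at 3.78, 3.98, 4.13 and 4.17 with allogeneic cells, a difference of 1.20 (SE 0.24), or 2.29-fold. The 2 lowest mice were 6229 and 6234, and without them the difference was 0.68 and did not pass. The call was also lost with exact 0 kept as a value, with the mean of both probes and in a fit of only these 2 groups. In rag2-/- mice Stab1 averaged 3.61 ± 0.11 (SD, n = 4) and 3.96 ± 0.40 (SD, n = 5), and in IL4Ra-/- mice 3.60 ± 0.34 (SD, n = 3) and 3.63 ± 0.22 (SD, n = 4), with overlap in both. Its other probe had a value in 21 of 24 mice and so was not used, and it was dim on 19 of 28 arrays. On that probe the differences were 1.14 in rag2-/-, 0.74 in IL13-/- and 0.20 in IL4Ra-/- mice. The probe used gave 0.36, 1.20 and 0.04. Hair follicle markers moved with the same 2 mice: 6 of 7 tested were lower in allogeneic than in syngeneic IL13-/- mice, against 7.11% of all genes. Without these mice 2 were lower, and the part of hair follicles was not tested. Stab1 and Colec12 had the same most similar gene, Tm6sf1 (r 0.908 and 0.885).

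**Figure D3:**
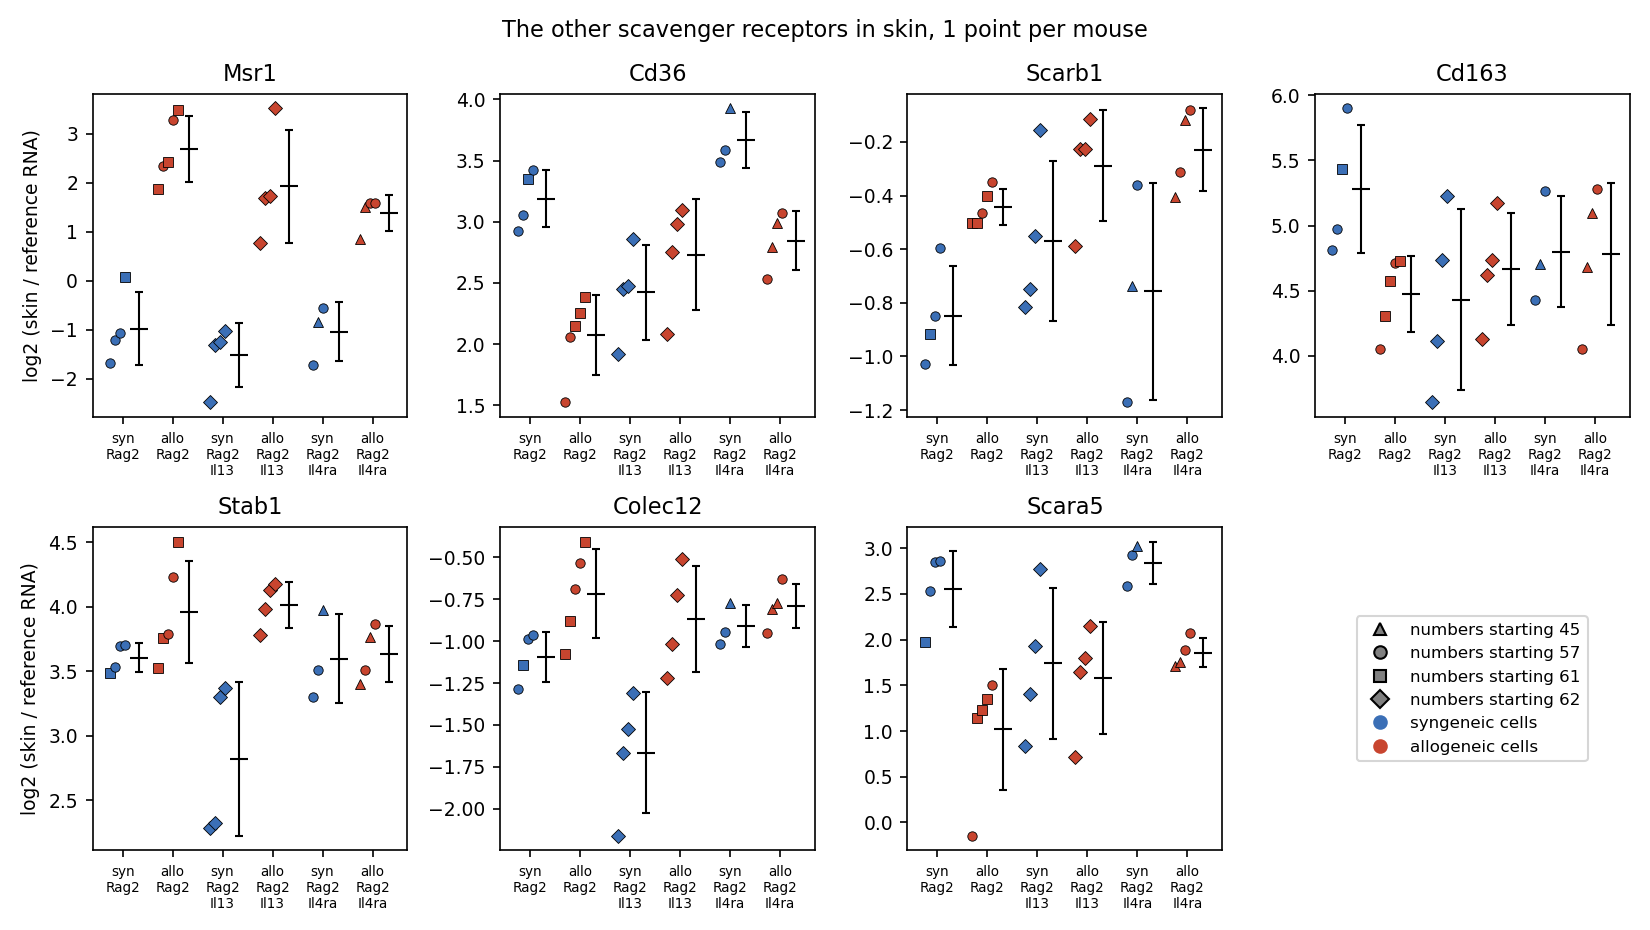
Levels of the other 7 receptors with a value, as log2 of skin over reference RNA, with 1 panel per gene and its own axis. Each point is a mouse, its shape gives the first digits of the mouse number, and bars are the mean and SD. Allogeneic mice lie above syngeneic mice for Msr1 in all 3 recipients, and below them for Cd36 and Scara5 in rag2-/- and IL4Ra-/- recipients.

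Counted together, 4 of 8 receptors passed between donors in rag2-/- recipients, Marco and Msr1 higher and Cd36 and Scara5 lower. Over all 14783 genes 28.2% passed, 12.6% higher and 15.6% lower. The 2 groups did not overlap for 6 of 8 receptors in rag2-/-, 4 in IL13-/- and 3 in IL4Ra-/- recipients, against 28.3%, 16.8% and 32.7% of all genes. In IL13-/- recipients 4 of 8 were higher (Marco, Msr1, Stab1 and Colec12) and 0 lower, where 16.3% of all genes passed, 9.19% higher and 7.11% lower. In IL4Ra-/- recipients Msr1 was higher and Cd36 lower, where 9.21% of all genes passed, 5.91% higher and 3.31% lower. The median difference of the 8 receptors was 0.37, 0.55 and 0.08, against -0.08, -0.05 and -0.05 over all genes. The 8 genes were chosen with these values known, so nothing is read from the counts.

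**Figure D4:**
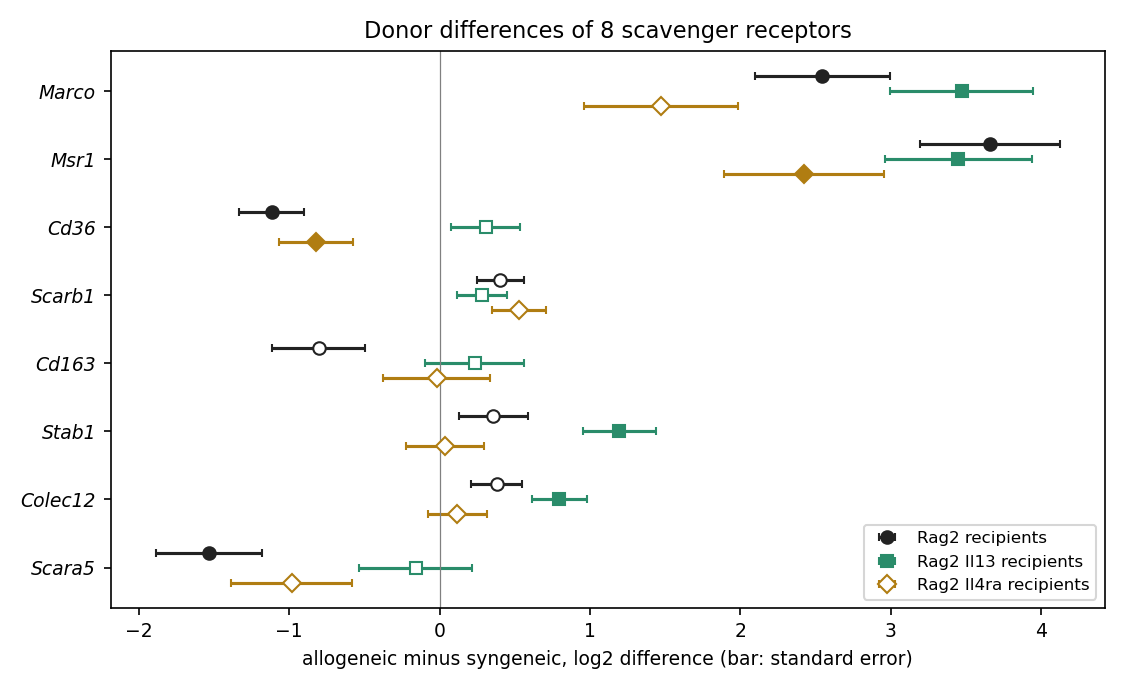
Allogeneic minus syngeneic difference of the 8 receptors in 3 kinds of recipient, in log2 units with standard errors. Filled symbols passed the test across all genes and open symbols did not. Msr1 lies to the right of 2.4 in every recipient, and Cd36 and Scara5 lie to the left of 0 in rag2-/- and IL4Ra-/- recipients.

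Whether the donor difference itself changed with the recipient was tested in the same fit. None of the 8 receptors passed for IL13-/- against rag2-/- recipients, where 0.0135% of all genes did (2 genes, with 2373, or 16.1%, at an unadjusted p under 0.05). None passed for IL4Ra-/- against rag2-/- recipients, where 0% of all genes did with limma (730 genes, or 4.94%, at an unadjusted p under 0.05). For Marco the donor difference was 0.93 (SE 0.65) larger in IL13-/- and changed by -1.07 (SE 0.68) in IL4Ra-/- recipients. For Msr1 the changes were -0.21 (SE 0.68) and -1.23 (SE 0.70). The 3 donor comparisons have no mice in common, while both of these tests share the rag2-/- mice.

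Genes that work beside these receptors were counted from lists by function. Over all genes 12.6% were higher and 15.6% lower in allogeneic rag2-/- mice. The shares were 9.19% and 7.11% in IL13-/- mice and 5.91% and 3.31% in IL4Ra-/- mice. The lists were chosen with earlier results known, so nothing is read from their counts. Among other scavenger receptors, 5 of 14 tested genes were higher and 1 lower in allogeneic rag2-/- mice, 7 higher and 1 lower in IL13-/- mice, and 4 higher and 0 lower in IL4Ra-/- mice. Clec7a, the beta-glucan receptor dectin-1, rose by 4.84 (SE 0.36, limma adjusted p = 5.23e-09), 5.23 and 3.82 in these recipients. Cxcl16, a chemokine that also binds oxidised lipoprotein on the cell surface, rose by 1.45 (SE 0.25, limma adjusted p = 0.000204), 1.85 and 1.30. Scarb2, a lysosomal relative of Cd36, rose by 0.83, 0.75 and 0.66, and Scara3 fell by 1.05 (SE 0.31, limma adjusted p = 0.0166) in rag2-/- mice, with -0.42 and -0.71, not passed, in the others. The Scara3 call was lost without mouse 5703 or 5704, and the last Scarb2 call without any 1 of the 7 IL4Ra-/- mice. Without mice 6229 and 6234 the list had 4 of 13 higher and 0 lower in IL13-/- mice.

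Receptor partners and signalling genes were higher in 7 and lower in 1 of 13 in rag2-/- mice, higher in 8 in IL13-/- mice (6 of 12 without mice 6229 and 6234) and higher in 3 in IL4Ra-/- mice. The lipopolysaccharide coreceptor Cd14 rose by 2.81 (SE 0.40, limma adjusted p = 2.95e-05) and 3.09 in the first 2 recipients, and in IL4Ra-/- mice it differed by 1.00 (SE 0.46, adjusted p = 0.179 in the same limma fit). The Toll-like receptor genes Tlr2 and Tlr6 rose by 2.66 and 1.78 and the signalling gene Vav1 by 1.97 in rag2-/- mice. Between allogeneic IL4Ra-/- and rag2-/- mice 0.805% of all genes passed, and 2 of these 13 were lower. They were Cd14 at -1.93 (SE 0.40, limma adjusted p = 0.0269) and the kinase gene Fyn at -0.47 (SE 0.10, limma adjusted p = 0.0364). T cell markers were lower in that comparison for 3 of 9, Cd2, Cd3g and Cd6, with a mean level over 7 genes of 0.68 to 0.83 against 1.56 to 2.21. With number series as a block none of these 5 genes passed, with differences of -2.38 for Cd14, -0.42 for Fyn, -1.07 for Cd2, -1.72 for Cd3g and -1.77 for Cd6. Each of the 5 calls was also lost in some fits without 1 allogeneic mouse: Cd3g without 5718 or 5720, Cd2 without 4533, 4534, 5701 or 5704, and Cd14, Fyn and Cd6 without 4534, 5701, 5704, 5718, 5720 or 6151. Cd14 and Fyn were further lost without 6154, and Fyn and Cd6 without 4533. Fyn was also lost within numbers starting 57 (-0.46), and Cd6 with exact 0 kept as a value (-0.72).

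Macrophage transcription factors were higher in 8 and lower in 1 of 13 in rag2-/-, higher in 6 in IL13-/- (3 without mice 6229 and 6234) and higher in 4 in IL4Ra-/- mice. In rag2-/- mice Tfec rose by 4.07 and Irf8 by 2.24, both expressed in macrophages. Spi1, which encodes PU.1, rose by 2.05 (SE 0.64, limma adjusted p = 0.0258), and Spic, a relative of PU.1, rose by 1.68. The Spi1 call was lost with exact 0 kept, with number series as a block and without 5703, 5704, 6153 or 6154. Spi1 differed by 0.83 and -0.22 in IL13-/- and IL4Ra-/- mice, neither of which passed.

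Lysosomal genes, whose products break down what the receptors bring in, were higher in 15 of 15 in rag2-/-, 10 in IL13-/- and 8 in IL4Ra-/- mice, with median differences of 1.39, 1.68 and 0.77. The protease gene Ctss rose by 4.37 (SE 0.32, limma adjusted p = 5.09e-09), and Ctsz rose by 2.73, Laptm5 by 2.60 and the acid lipase gene Lipa by 2.12 in rag2-/- mice. Haemoglobin and iron genes were higher in 9 of 13, 8 of 13 with 2 lower (6 of 12 and 0 without mice 6229 and 6234), and 3 of 13. The iron transporter gene Slc11a1 rose by 3.25, the siderophore binder Lcn2 by 3.21, the ferritin gene Ftl1 by 1.89 and the haem binder Hpx by 1.79 in rag2-/- mice. The Hpx call was lost with exact 0 kept and without 5701, 5702, 5704, 6153 or 6154.

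Lipid and cholesterol genes were split in rag2-/- mice, with 5 of 17 higher and 6 lower, against 5 and 0 in IL13-/- and 4 and 1 in IL4Ra-/- mice. The 4 largest differences were rises in Lipa, Npc2 (1.73), Abcg1 (1.60) and Apoc2 (1.47), which handle cholesterol and lipoproteins. The Apoc2 call was lost with array weights and without 5700, 5702, 5704 or 6154. Genes for the uptake of dying cells were higher in 4 and lower in 3 of 19 in rag2-/- mice, against 12.6% and 15.6% of all genes. They were higher in 8 in IL13-/- mice (2, with 1 lower, without mice 6229 and 6234), and higher in 3 and lower in 1 in IL4Ra-/- mice. The lipid-binding receptor gene Cd300lf rose by 4.76, the complement gene C1qb by 1.58 and Havcr2 (TIM-3) by 0.89, and the bridging ligand gene Gas6 fell by 1.09 in rag2-/- mice. The Havcr2 call was lost with exact 0 kept, with number series as a block, within numbers starting 57 and without 4534, 5702, 5703, 5704, 5720, 6153, 6154 or 6223.

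Marker genes of cells other than macrophages differed too. Over all genes 28.2% passed in rag2-/-, 16.3% in IL13-/- and 9.21% in IL4Ra-/- recipients. T cell markers were higher in 8 of 9 in allogeneic rag2-/-, 8 of 9 in IL13-/- (with 1 lower, 0 without mice 6229 and 6234) and 7 of 9 in IL4Ra-/- mice, and neutrophil markers in 1, 1 and 0 of 3. Macrophage markers were higher in 15 of 15, 15 of 15 and 12 of 15. Epidermal markers were lower in 6 of 9 in rag2-/- mice, and 0 passed in the others. Against a reference of pooled cell lines these are shares of RNA, and the part of any of these cells in the receptor levels was not tested.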

How the data were processed

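Skin RNA (Cy3) and a common reference RNA (Cy5) were hybridised to 2-colour Agilent arrays after linear amplification, per the labels' protocols. The deposited values are read as log2 ratios. The median of an array's nonzero values lay between -0.144 and 0.039, so each array appears centred. Scanner software, background correction and normalization: not given in the sources used here. Log base was inferred from the spacing of recurring values, and direction from the labelled dyes and marker genes. The sign was turned, exact 0 was taken as missing, and arrays of 1 mouse were averaged. Of 41174 probes, 32664 had 1 gene name, 45 several and 8465 none. Probes of a gene with the most measured mice were averaged.

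A model of 6 group means over 24 mice was fitted (lmFit and eBayes of limma 3.58.1, R 4.3.3) to each gene with values from 2 or more mice in every group. Tests were two-sided with Benjamini-Hochberg adjustment over 14783 genes, threshold 0.05, and were tested on simulated data. The labels do not say whether mice are littermates, and p-values measure the spread between these mice. Members and gene lists were chosen with earlier results of these data known. Named are the receptors, the 5 genes most correlated with Marco and 1 with each other receptor, and up to 4 genes per pathway list with the largest difference among those past the threshold in rag2-/- recipients. Other genes named for a recipient comparison were chosen after their values were seen. Alternatives covered normalization, missing values, probes, arrays, batch, weights and each mouse left out, and their use on the gene lists was chosen after seeing the data.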

Additional observations from a re-analysis of the deposited data

Results flagged for a closer look

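Of 40 groups of 4 or 5 mice looked at, 3 held a mouse far from the rest of its group by Dixon's ratio, where chance gives about 1 in 20. Marco in the allogeneic rag2-/- mouse 6154 read 5.85, against 4.62 in the next highest mouse of the group. Msr1 in the allogeneic IL4Ra-/- mouse 4534 read 0.847, against 1.51 in the next lowest. Scara5 in the allogeneic rag2-/- mouse 5704 read -0.145, against 1.14 in the next lowest. Without mouse 6154 the Marco difference between donors in rag2-/- recipients was 2.27, and it passed. The cause of these 3 values was not tested.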

How the results depend on the processing

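Over 36 alternatives (12 choices of processing and 24 fits that each left out 1 mouse), no receptor difference past the threshold turned its sign. The donor calls of Marco in rag2-/- and IL13-/- recipients, of Msr1 in all 3 and of Cd36 and Scara5 in rag2-/- recipients held in every setting that gave a value. Receptors called between donors numbered 4 to 5 in rag2-/- recipients, 4 to 4 in IL13-/- and 1 to 3 in IL4Ra-/- recipients when 1 mouse was left out. In the fit of all 24 mice 28.2%, 16.3% and 9.21% of all genes passed in these recipients. The other fits can test other numbers of genes, so nothing is read from these counts. In IL13-/- recipients 2 receptors were called without mice 6229 and 6234 (1432 genes) and 2 in a fit of 2 groups (819 genes). In IL4Ra-/- recipients 1 was called with exact 0 kept (880 genes), 1 after quantile normalization, 1 within numbers starting 57 (728 genes) and 5 with array weights (3006 genes), and 2056 genes passed in a fit of 2 groups. With 1 mouse left out 601 to 1637 genes passed there.

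Genes whose donor difference changed in IL13-/- recipients numbered 4 with exact 0 kept, 0 after quantile normalization, 18 without dim values, 10 among complete genes, 0 with number series as a block, 679 with array weights, 0 without mice 6229 and 6234, and 0 to 849 with 1 mouse left out. For IL4Ra-/- recipients they numbered 0 to 3. Between allogeneic IL13-/- and rag2-/- mice 1 gene passed without dim values, 75 with array weights, 4 without those 2 mice and 0 to 87 with 1 mouse left out. Between allogeneic IL4Ra-/- and rag2-/- mice 119 genes passed, against 66 with exact 0 kept, 78 with all probes, 3 with the block, 725 with array weights, 212 without the 2 mice, 221 in a fit of 2 groups and 6 to 326 with 1 mouse left out. Between the syngeneic groups of IL13-/- and rag2-/- mice 42 passed, against 5 after quantile normalization, 123 without dim values, 64 among complete genes, 896 with array weights, 3 without the 2 mice, 4 in a fit of 2 groups and 0 to 1822 with 1 mouse left out. For IL4Ra-/- mice 1 passed within numbers starting 57, 2 with array weights and 0 to 1 with 1 mouse left out. The causes of these shifts were not tested. No paired analysis was possible because each mouse number belongs to 1 group.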
